A study of Mus musculus with 6 samples.

Results

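From a table of 27202 genes, 10 names of genes that make, break down or sense prostaglandins were chosen, with earlier results of the same genotype comparison known, and 9 of the 10 have a row in the table and were analyzed. The 9 are the cyclooxygenases *Ptgs1* and *Ptgs2*, the synthases *Ptges*, *Ptges2* and *Ptgis*, the degrading enzyme *Hpgd* and the prostaglandin E2 receptor genes *Ptger2*, *Ptger3* and *Ptger4*, while *Ptgds* was not analyzed here. RNA had been sequenced from whole colonic tissue of mice 8 to 10 weeks old, all given 2% dextran sulfate sodium (DSS), a polymer used to induce colitis, in drinking water and sampled on day 7. The 3 libraries cKO1 to cKO3 came from *Nedd4l* fl/fl *Villin* Cre mice, whose ubiquitin ligase gene *Nedd4l* is removed in intestinal epithelial cells (IECs) but not in other cells of the tissue, since the *Villin* promoter drives the Cre, and 3 more (WT1 to WT3) came from *Nedd4l* fl/fl littermates without Cre, which the labels call WT. Both groups carry the floxed alleles on a C57BL/6J background and both received DSS, so the comparison is of genotype within colitis, with no untreated mice beside it.

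Prostaglandins are short-lived lipid signals. Phospholipases A2 release arachidonic acid from membranes, the cyclooxygenases convert it to prostaglandin H2, and terminal synthases turn that intermediate into prostaglandin E2, prostacyclin and other prostanoids, which act on G protein–coupled receptors of the cells nearby until 15-hydroxyprostaglandin dehydrogenase, the product of *Hpgd*, inactivates them. In the colon, COX-1 from *Ptgs1* is made constitutively, COX-2 from *Ptgs2* is induced by inflammation and injury, and prostaglandin E2 acting through the EP2 and EP4 receptors is known for its part in epithelial repair.

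The cyclooxygenase genes serve the same step of the pathway but differed in their values between genotypes, as described below, so the sequences around their annotated starts are shown first, each from 250 bases before to 50 bases after the RefSeq start on GRCm38.p6, in lower case with motif matches in capitals. *Ptgs2* starts on the plus strand of chromosome 1 and its window is chr1:150099781-150100080. *Ptgs1* starts on the plus strand of chromosome 2 and its window is chr2:36230176-36230475.
Ptgs2 promoter window: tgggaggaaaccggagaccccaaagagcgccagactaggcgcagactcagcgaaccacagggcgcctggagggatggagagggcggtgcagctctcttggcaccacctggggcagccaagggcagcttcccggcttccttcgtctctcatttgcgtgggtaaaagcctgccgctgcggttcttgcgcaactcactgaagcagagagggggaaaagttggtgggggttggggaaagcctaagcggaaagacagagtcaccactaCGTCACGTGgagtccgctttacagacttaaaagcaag
Ptgs1 promoter window: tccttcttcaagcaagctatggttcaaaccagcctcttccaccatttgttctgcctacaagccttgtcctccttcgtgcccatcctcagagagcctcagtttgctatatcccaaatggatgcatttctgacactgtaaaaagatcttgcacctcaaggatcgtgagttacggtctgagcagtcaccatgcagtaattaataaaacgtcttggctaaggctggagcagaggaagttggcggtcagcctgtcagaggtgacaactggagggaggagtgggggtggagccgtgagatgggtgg
A search of both strands covered 4 motifs: the TATA box TATAAA, the cAMP response element half-site TGACG, the E-box CACGTG and the NF-kappaB motif. In the *Ptgs2* window the capitals mark a half-site on the minus strand and an E-box that overlap by 2 bases and begin 13 and 16 bases after the start position, and the *Ptgs1* window held no match to any of the 4. Of 32851 promoter windows in the RefSeq table, 20.8% held the half-site, 7.15% the E-box, 13.6% the TATA box and 8.46% the NF-kappaB motif. A window was there for 8 of the 9 analyzed genes, of which 1 held the half-site (*Ptgs2*), 2 the E-box (*Ptgs2* and *Ptges2*), 1 the TATA box (*Hpgd*) and 0 the NF-kappaB motif. A match to these letters is a description of the sequence and not a binding site.

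AU-rich stretches in the 3' untranslated region (UTR), a textbook feature of short-lived inflammatory mRNAs, also separated the cyclooxygenase genes. The 2445-base 3' UTR of *Ptgs2* (GENCODE M21) held 14 ATTTA pentamers, and 98.1% of 13009 analyzed genes with a 3' UTR of at least 100 bases had that many or fewer. The stretch of 30 bases with most of them begins 12 bases after the stop codon and has the 4 pentamers in capitals.
Ptgs2 3' UTR site: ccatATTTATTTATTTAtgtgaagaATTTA
The 3' UTRs of *Ptgs1* and *Ptges* held 0 such pentamers, against a median of 1 over all those genes, and the counts for *Ptger2*, *Ptger4*, *Ptges2* and *Hpgd* were 6, 5, 4 and 4. Longer 3' UTRs have room for more. Per kilobase *Ptgs2* had 5.73, with 95.3% of those genes at or below it. *Hpgd* had 4.77 (92.6%), *Ptger4* 4.06 (89.1%), *Ptger2* 3.29 (82.8%) and *Ptges2* 1.16 (47.3%), against a median of 1.29.

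The authors deposited normalized counts, that is, reads per gene divided by 1 factor per library. Every value was a whole multiple of its library's smallest step, and the libraries totaled 14914367 to 17547270 such steps, which stand for their depth. Markers of epithelium and of other parts of the tissue were present. All 7 pan-epithelial genes, among them *Epcam* and *Vil1*, lay above the filter described below. So did all 7 genes of each of the fibroblast, smooth muscle and endothelial lists. The deleted gene *Nedd4l* (chromosome 18) stood at 476, 942 and 566 in cKO1, cKO2 and cKO3 and at 1241, 1271 and 1266 in WT1, WT2 and WT3, every cKO library below every WT library. Its log2 difference was −0.99 (standard error 0.24, adjusted p = 0.225 from limma), and cKO2, the cKO library with the most *Nedd4l* RNA, had a higher mean correlation with the WT libraries (0.977) than with its own group (0.966). Values were compared with limma as log2(normalized count + 1) for those 16246 genes whose mean reached 10 or more, a filter that the 9 prostaglandin genes all passed, so differences of genes with low counts are understated. Nothing in the labels says that each library is a different mouse, so p-values measure the spread between these libraries. The differences of the 9 genes between genotypes are given as a description, because the genes, although chosen by name and role, were selected with the cKO and WT values of that same comparison in view.

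*Ptgs2* had the largest difference between genotypes among the 9 genes. Its normalized counts were 362, 203 and 292 in cKO1, cKO2 and cKO3 and 107, 119 and 60.9 in WT1, WT2 and WT3. Even the lowest cKO library, cKO2, lay well above the highest WT library. The means were 286 ± 79.6 (SD, n = 3) in cKO and 95.4 ± 30.5 (SD, n = 3) in WT, a 3.00-fold ratio of means, and the log2 difference was 1.59 (standard error 0.31, 95% confidence interval 0.88 to 2.30). *Ptgs2* (chromosome 1, 150100031 to 150108227, plus strand) encodes the inducible COX-2, has 10 exons and overlaps no other annotated gene. Among the cKO libraries *Ptgs2* was highest in cKO1 and lowest in cKO2, while *Nedd4l* RNA was lowest in cKO1 and highest in cKO2. Over all genes tested, cKO2 also had the highest mean correlation with the WT libraries (0.977) of these libraries and cKO1 the lowest (0.948). A link between *Ptgs2* and the amount of *Nedd4l* RNA was not tested.

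*Ptgs1*, which encodes the constitutive COX-1, did not follow. Its normalized counts were 381, 367 and 283 in cKO1, cKO2 and cKO3 and 363, 317 and 313 in WT1, WT2 and WT3, so that the lowest and the highest library were both cKO. The log2 difference of *Ptgs1* (chromosome 2, 36230426 to 36252272, plus strand) was 0.04 with a 95% confidence interval from −0.29 to 0.38, and it turned below 0 without cKO1 (−0.04), without cKO2 (−0.01) and with limma's array weights (−0.14). *Ptgs2* therefore made up 48.8%, 35.7% and 50.8% of the summed cyclooxygenase counts in cKO1, cKO2 and cKO3, against 22.7%, 27.3% and 16.3% in WT1, WT2 and WT3. Per kilobase of gene length, which allows the levels of different genes to be compared, the ratio of *Ptgs2* to *Ptgs1* was 0.81, 0.47 and 0.88 in the cKO libraries and 0.25, 0.32 and 0.17 in the WT libraries. In no library was *Ptgs2* above *Ptgs1* on this scale, although they came close in cKO1 and cKO3.

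**Figure D1:**
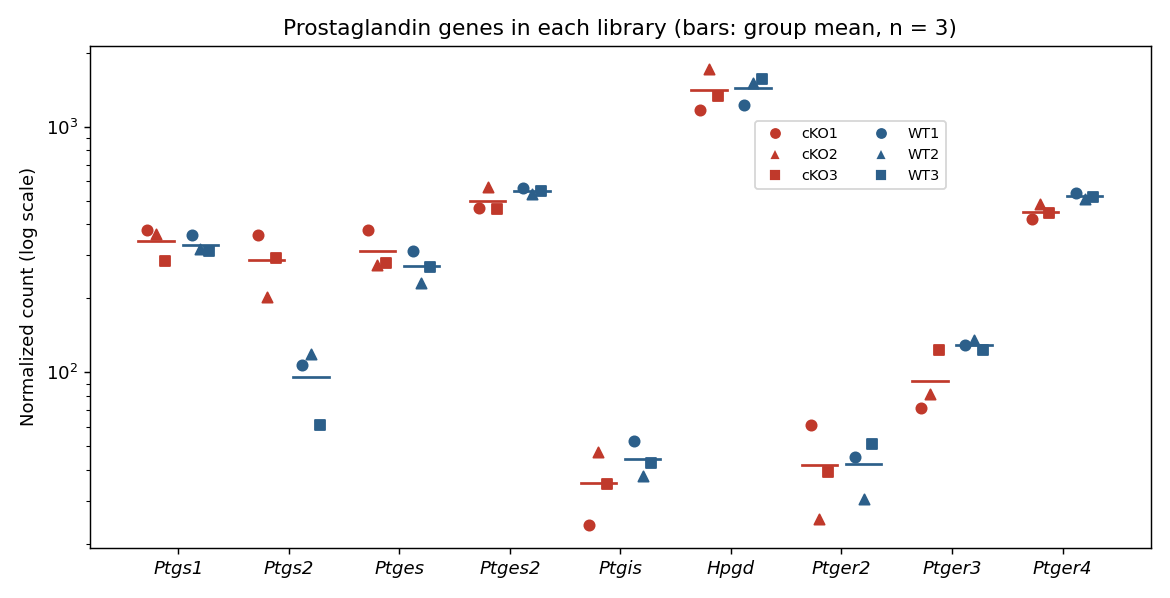
Normalized counts (log axis) of the 9 prostaglandin genes in each library, red for cKO and blue for WT, with 1 marker shape per replicate number and a bar at each group mean. The 3 cKO libraries of *Ptgs2* (203 to 362) lie above its 3 WT libraries (60.9 to 119), and those of *Ptger4* lie a little below theirs.

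Terminal synthases differed less. *Ptges* encodes the inducible microsomal prostaglandin E synthase, which is known to work with COX-2. It stood at 380, 274 and 277 in cKO1, cKO2 and cKO3 and at 311, 230 and 268 in WT1, WT2 and WT3. Its highest library was cKO1 and the other cKO libraries lay within the WT range, so the groups overlapped, with a log2 difference of 0.20 (standard error 0.18) that was 0.04 without cKO1. *Ptges2*, the gene of a second, constitutive prostaglandin E synthase, had 466, 566 and 462 in the cKO libraries and 562, 529 and 547 in the WT libraries. Here cKO2 was the highest of all 6 while cKO1 and cKO3 were the lowest, for a log2 difference of −0.14 (standard error 0.11) that ran from −0.23 without cKO2 to −0.09 without cKO1 or cKO3. *Ptgis*, the prostacyclin synthase gene, was among the least expressed members, with 24.0, 47.5 and 35.1 in the cKO libraries and 52.3, 37.8 and 42.9 in the WT libraries, and a log2 difference of −0.35 (standard error 0.31) that was −0.10 without cKO1 and −0.58 without cKO2. All 3 synthase genes lie on chromosome 2, at 30889471 to 30929863 (*Ptges*, minus strand), 32395896 to 32405772 (*Ptges2*, plus strand) and 167191805 to 167240604 (*Ptgis*, minus strand), as does *Ptgs1*.

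*Hpgd*, whose product is the main prostaglandin-inactivating enzyme, was the most abundant member. Its normalized counts were 1168, 1718 and 1329 in cKO1, cKO2 and cKO3 and 1226, 1506 and 1566 in WT1, WT2 and WT3. The groups overlapped fully, with the extremes both in cKO. The means of *Hpgd* (chromosome 8, 56294585 to 56321043, plus strand) were 1405 ± 283 (SD, n = 3) and 1432 ± 182 (SD, n = 3), and the log2 difference was −0.04 with a 95% confidence interval from −0.40 to 0.33, turning to 0.08 without cKO1, 0.03 without WT3 and 0.0016 without WT2. Setting *Ptgs2* against *Hpgd* within each library gave a ratio of counts per kilobase of 0.11, 0.04 and 0.08 in cKO1, cKO2 and cKO3 and of 0.03, 0.03 and 0.01 in WT1, WT2 and WT3. The ratio was higher in every cKO library than in any WT library, and *Hpgd* remained the more abundant of the pair in all 6.

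The receptor genes were at or below their WT levels. *Ptger4* encodes EP4, a receptor that raises cAMP, and was the most abundant of the 3. It had 421, 485 and 444 normalized counts in cKO1, cKO2 and cKO3 and 536, 509 and 516 in WT1, WT2 and WT3. Every cKO library lay below every WT library, by a small margin, with means of 450 ± 32.7 (SD, n = 3) and 521 ± 14.03 (SD, n = 3) and a log2 difference of −0.21 (standard error 0.10, 95% confidence interval −0.44 to 0.01). The *Ptger4* gene (chromosome 15, 5206661 to 5244187, minus strand) shares 82 exonic bases with *Ttc33* on the opposite strand and 1015 with the processed pseudogene *Gm15937*. Whether the counting used strand is not given in the sources used here, so its reads and theirs may be confused.

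*Ptger3* encodes EP3, which mainly lowers cAMP. Its normalized counts were 71.9, 81.8 and 123.78 in cKO1, cKO2 and cKO3 and 129, 136 and 123.82 in WT1, WT2 and WT3. cKO3 reached the lowest WT library to within less than 1 normalized count, so the groups were separate only nominally. The log2 difference of *Ptger3* (chromosome 3, 157566892 to 157645888, plus strand) was −0.52 (standard error 0.23, 95% confidence interval −1.06 to 0.01), and it was −0.18 with array weights, −0.36 without cKO1 and −0.75 without cKO3. *Ptger2*, the gene of EP2, another receptor that raises cAMP, had 61.3, 25.4 and 39.2 in the cKO libraries and 45.4, 30.6 and 50.9 in the WT libraries. These ranges overlapped fully, and the log2 difference of *Ptger2* (chromosome 14, 44988195 to 45003820, plus strand) was −0.07 (standard error 0.37), turning to 0.24 without cKO2 and 0.08 without WT3.

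Of the 9 genes, 3 were higher and 6 lower in cKO, with a median log2 difference of −0.07 against 0.0013 over all 16246 genes. Non-overlapping groups were seen for 3 of the 9, *Ptgs2* above and *Ptger3* and *Ptger4* below, where 21.4% of all genes tested did not overlap, 10.5% with cKO above and 10.9% with cKO below. In the limma fit with Benjamini-Hochberg adjustment over all genes, 0 of the 9 were at an adjusted p under 0.05, as were 0% of all genes, and their adjusted p ran from 0.169 for *Ptgs2* to 0.945 for *Ptger2*. At an unadjusted p under 0.05, 1 of the 9 (*Ptgs2*) was higher and 0 were lower, against 6.91% and 7.08% of all genes. With array weights, which down-weight libraries that vary more, *Ptgs2* was the 1 member called higher, with a log2 difference of 1.72 and an adjusted p of 0.018, and 0 members were called lower, against 1.61% and 2.27% of all genes. Over all settings tried its log2 difference stayed between 1.30 and 1.81, the lowest being without WT3 and the highest without cKO2, with adjusted p between 0.018 and 0.49.

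**Figure D2:**
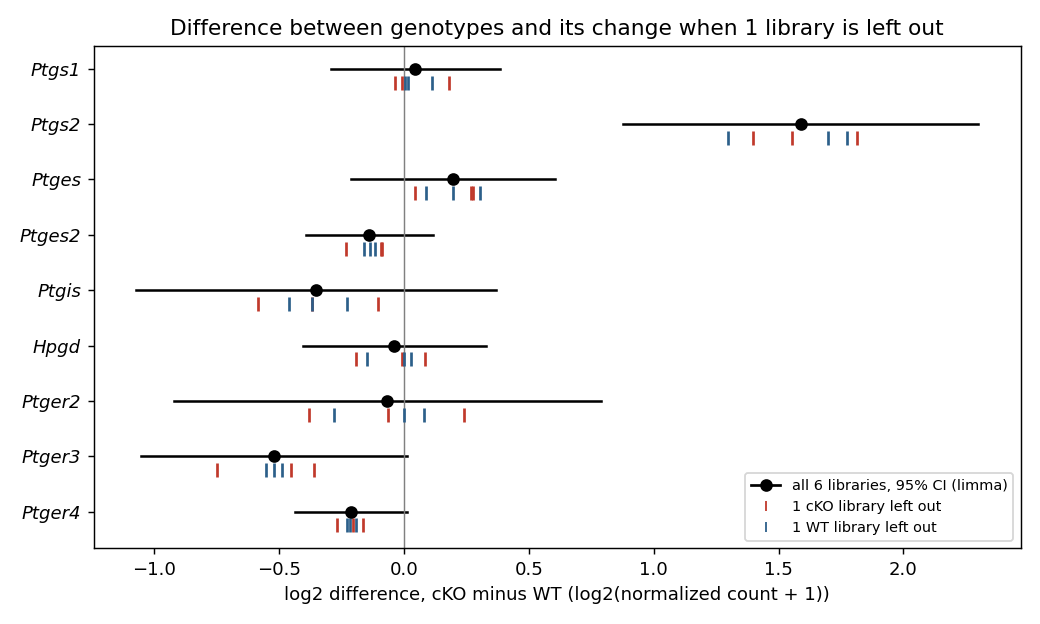
Log2 difference between genotypes (cKO minus WT) of each prostaglandin gene, with the 95% confidence interval from limma (black) and the value when 1 cKO (red tick) or 1 WT (blue tick) library is left out. *Ptgs2* stays between 1.30 and 1.81, whereas the ticks of *Ptgs1*, *Hpgd* and *Ptger2* fall on both sides of 0.

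Levels per kilobase spanned a wide range in the WT libraries. *Hpgd* led with 851 ± 108 (SD, n = 3) normalized counts per kilobase, 104.5 times *Ptger2* at the bottom with 8.15 ± 2.03 (SD, n = 3). *Ptges2* followed at 108 ± 3.26 (SD, n = 3), clear of both neighbors. *Ptgs1* (85.2 ± 7.28, SD, n = 3), *Ptger4* (78.3 ± 2.11, SD, n = 3) and *Ptges* (68.6 ± 10.3, SD, n = 3) came next, each with a range that overlapped that of the following gene among these 3. *Ptger3* (22.8 ± 1.06, SD, n = 3), *Ptgs2* (20.8 ± 6.66, SD, n = 3) and *Ptgis* (17.3 ± 2.88, SD, n = 3) formed a lower group in which neighbors likewise overlapped. In the cKO libraries *Ptgs2* stood at 62.4 ± 17.4 (SD, n = 3) normalized counts per kilobase, sixth instead of the seventh place it held in WT, and its range of 44.4 to 79.1 overlapped those of *Ptger4*, *Ptges* and *Ptgs1*. *Ptger3* took the seventh place there, and *Ptges* and *Ptger4* exchanged the fourth and the fifth.

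**Figure D3:**
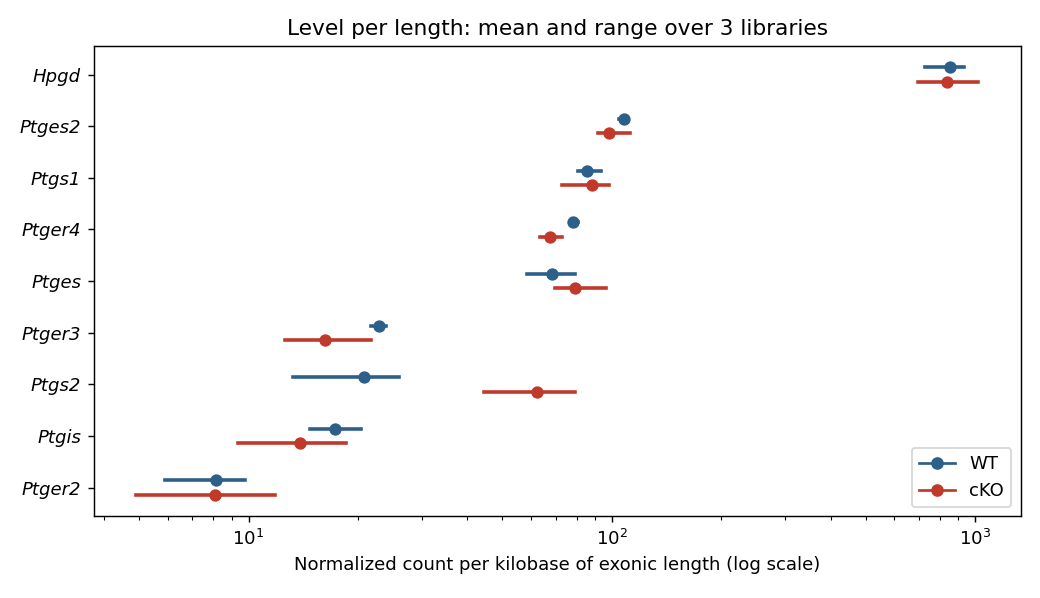
Normalized count per kilobase of exonic length (log axis) for each prostaglandin gene, with the mean (point) and the range over 3 libraries (line) for WT in blue and cKO in red, ordered by the WT mean. *Hpgd* lies highest in both groups, and the *Ptgs2* ranges of the groups (13.3 to 25.9 in WT and 44.4 to 79.1 in cKO) are apart.

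Whole tissue mixes many cell types, and a cell type being more frequent cannot be told apart from more RNA per cell. Among 18 marker lists, those of fibroblasts, of macrophages and monocytes and of mast cells summed higher in every cKO than in any WT library. Fibroblast markers, all 7 of them above the filter and with a log2 difference above 0, summed to 21180 to 42820 normalized counts in cKO and 10670 to 18250 in WT. That sum was mostly the collagen genes *Col1a1*, *Col1a2* and *Col3a1*, which like *Pdpn* were higher in every cKO than in any WT library, as were 10.5% of all genes. *Dcn*, *Pdgfra* and *Lum* overlapped, *Lum* with means of 252 in cKO and 244 in WT. Macrophage and monocyte markers summed to 9061 to 10320 and 5821 to 8332, with *Lyz2* the largest part (means of 5341 in cKO and 3710 in WT). Among the 7 markers of this list, *Lyz2* and the monocyte gene *Ly6c2* were higher in every cKO than in any WT library, as were 10.5% of all genes. The other 5, among them *Mrc1*, *Adgre1* and *Csf1r*, overlapped. Mast cell markers, of which 4 of the 5 above the filter were higher, summed to 195.5 to 1110 and 99.9 to 169. Of those 4, *Cpa3* and *Mcpt4* passed the filter only through cKO libraries and so had to be higher. Neutrophil markers summed to 9641 in cKO1 and to between 2970 and 3235 in the other 5 libraries, where *Ly6g*, at 2200 to 3136 in all 6 libraries, made up most of the sum. Of the 7 markers 6 were higher in cKO. At an unadjusted p under 0.05 in limma 3 were higher (*S100a9*, *Cxcr2* and *Mmp8*) and 1 lower (*Ly6g*), beside 6.91% and 7.08% of all genes. Of the higher genes, *Cxcr2*, *Mmp8* and *Retnlg* passed the filter only through cKO libraries. They had to be higher, so their values are a description and support no direction. *S100a9* had 2680, 27.6 and 348 normalized counts in cKO1, cKO2 and cKO3 and 15.8, 10.8 and 14.98 in WT1, WT2 and WT3. *Mmp8* had 406, 6.63 and 36.1 in the cKO libraries and 2.96, 0.90 and 0 in the WT libraries. For *S100a9*, *Cxcr2* and *Mmp8* every cKO library lay above every WT library, as for 10.5% of all genes. They were highest in cKO1 and lowest in cKO2, an order of the cKO libraries also seen for *Ptgs2* and for the fibroblast sum. The mast cell sum and the macrophage and monocyte sum were highest in cKO2. How many of all genes have either order was not counted, so these orders are a description only. None of the markers with a row was at 0 in every library.

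*Ptgs2* was also set against the fibroblast, the macrophage and monocyte and the mast cell list, the ones that summed higher in every cKO library. Dividing by such a sum had to lower the cKO to WT ratio, so the narrower separation of *Ptgs2* is a description only. Per 1000 counts of the fibroblast list it had 8.46, 9.60 and 12.9 counts in cKO1, cKO2 and cKO3 and 5.84, 11.1 and 4.52 in WT1, WT2 and WT3, so the groups overlapped through WT2. Per 1000 counts of the macrophage and monocyte list it had 39.6, 19.7 and 32.2 in the cKO libraries and 12.8, 20.4 and 7.90 in the WT libraries, overlapping through cKO2 and WT2. Per 1000 counts of the mast cell list it had 1853, 183 and 575 in the cKO libraries and 632, 1189 and 500 in the WT libraries, with full overlap. The part of these cells and of neutrophils in the *Ptgs2* difference was not tested. Pan-epithelial markers summed to 170500 to 196000 in cKO and 189800 to 209400 in WT, and tuft cell markers, of interest because tuft cells are a known source of *Ptgs1* RNA, to 237 to 373 and 347 to 447, both overlapping. The tuft sum was mostly *Dclk1* and *Avil*. Of the 4 tuft markers above the filter 3 were lower in cKO, 2 of them at an unadjusted p under 0.05 in limma, beside 7.08% of all genes. *Sh2d6* was lower in every cKO than in any WT library, as were 10.9% of all genes (log2 difference −1.78, standard error 0.35, adjusted p = 0.169 from limma). *Trpm5* had overlapping groups (log2 difference −1.76, standard error 0.64, adjusted p = 0.317 from limma).

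**Figure D4:**
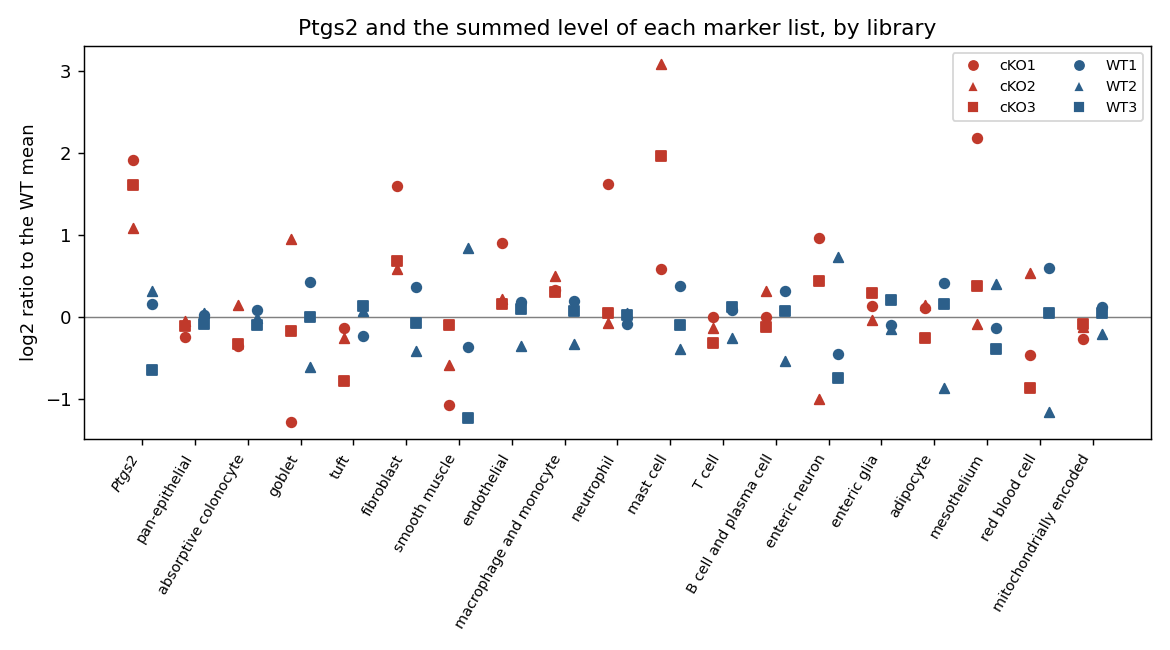
Log2 ratio of *Ptgs2* and of the summed normalized count of each marker list to its WT mean, by library (red cKO, blue WT, 1 marker shape per replicate number). The cKO libraries lie above the WT libraries for *Ptgs2* and for the fibroblast, macrophage and monocyte, and mast cell lists, while the sums of the other lists overlap, the neutrophil sum being mostly *Ly6g* outside cKO1.

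Other genes of the pathway were taken from 4 lists that together hold 36 names, of which 34 had a row and 30 passed the filter. Of these 30, 13 were higher and 17 lower in cKO with a median log2 difference of −0.07, and 0 were at an adjusted p under 0.05 in limma. At an unadjusted p under 0.05, 1 was higher and 4 were lower, 5 of 30, beside 14% of all genes in either direction. Among 13 phospholipase and lipase genes that release arachidonic acid, 7 were higher and 6 lower. *Pla2g2a*, the gene of a secreted phospholipase A2, is annotated as a polymorphic pseudogene and is known to be disrupted in C57BL/6 mice, so its RNA is not evidence of a working enzyme. It had 1465, 1328 and 1995 in cKO1, cKO2 and cKO3 and 682, 1248 and 1015 in WT1, WT2 and WT3, each cKO library above each WT library (log2 difference 0.72, standard error 0.25, adjusted p = 0.316 from limma). The gene of that list with the highest mean count, not scaled by length, was *Pla2g10*. It overlapped between the groups (log2 difference 0.07, standard error 0.18), and its sign turned without cKO2 (−0.08) and without cKO3 (−0.0022).

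Of the other 7 synthase and reductase genes, 6 were lower in cKO, with a median log2 difference of −0.41. *Akr1c18*, an aldo-keto reductase gene best known for breaking down progesterone, passed the filter only through its WT libraries, with 9.59, 8.84 and 8.25 in cKO1, cKO2 and cKO3 and 19.8, 31.5 and 20.97 in WT1, WT2 and WT3. A gene that passes in this way had to differ, so these values of *Akr1c18* are a description and support no direction, and it counts among the 6 lower genes and the median above. *Akr1b3*, a prostaglandin F synthase and aldose reductase gene, stood at 1223 ± 324 (SD, n = 3) and 1588 ± 57.0 (SD, n = 3), with a log2 difference of −0.41 (adjusted p = 0.352 from limma). That difference was −0.61 without cKO2 (adjusted p = 0.0485) and −0.25 without cKO3 (adjusted p = 0.572). *Ptges3*, which encodes the cytosolic prostaglandin E synthase and HSP90 cochaperone p23, was at 1105 ± 113 (SD, n = 3) and 1459 ± 292 (SD, n = 3) with overlapping groups. *Cbr1*, a carbonyl reductase gene and the most abundant of the list, had 1432, 2853 and 2106 in the cKO libraries and 3188, 2694 and 3022 in the WT libraries (log2 difference −0.53, standard error 0.24), a difference that was −0.27 without cKO1 and −0.77 without cKO2.

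Of 7 breakdown and transport genes, 4 were higher and 3 lower. *Zadh2*, a prostaglandin reductase gene, was a little lower in every cKO library, at 1408 ± 68.8 (SD, n = 3) against 1596 ± 64.9 (SD, n = 3), with a log2 difference of −0.18 (standard error 0.08, adjusted p = 0.355 from limma). *Slco2a1*, which encodes the prostaglandin uptake carrier, had the highest mean count of that list, not scaled by length. It overlapped, at 1734 ± 185 (SD, n = 3) and 1905 ± 190 (SD, n = 3). Of 6 further prostanoid receptor genes, 3 passed the filter. The highest mean count among these, not scaled by length, was that of *Ptger1*, which encodes EP1. It stood at 30.2 ± 3.36 (SD, n = 3) and 28.8 ± 6.97 (SD, n = 3), a log2 difference of 0.08 that turned below 0 without cKO3 (−0.0021) and without WT3 (−0.06).

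**Figure D5:**
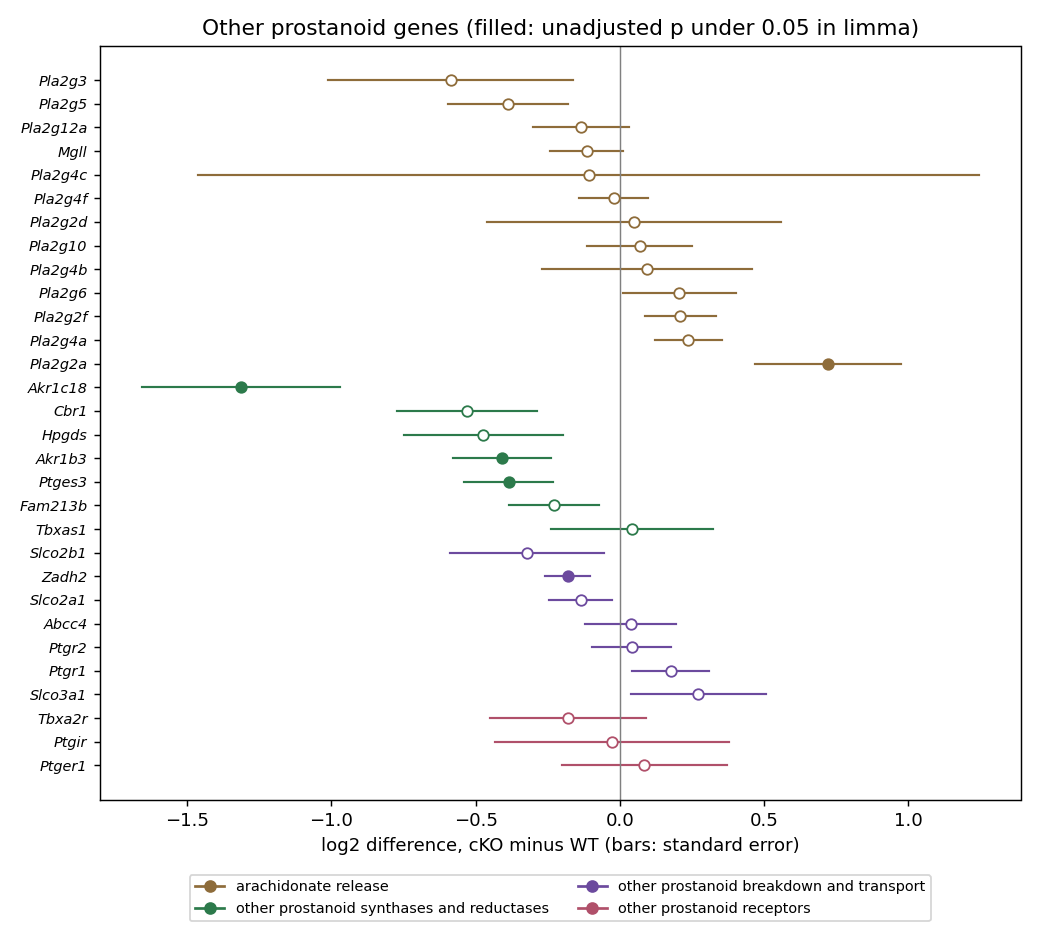
Log2 difference between genotypes (cKO minus WT) with its standard error for the 30 other prostanoid genes tested, colored by list and filled where the unadjusted p in limma was under 0.05. *Pla2g2a* is the 1 filled gene above 0, and *Akr1c18*, *Akr1b3*, *Ptges3* and *Zadh2* are the 4 below.

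A list of genes known to respond to cAMP, the messenger that EP2 and EP4 raise and that many other receptors raise too, was chosen with earlier results of these data known, so its direction is not independent evidence. It held 14 tested genes, 13 of them higher and 1 lower in cKO, and their median log2 difference was 0.40. At an unadjusted p under 0.05, 6 were higher (*Sik1*, *Nr4a1*, *Per1*, *Pde4b*, *Dusp1* and *Rgs2*) and 1 lower (*Fosb*), beside 6.91% and 7.08% of all genes, and 0 were at an adjusted p under 0.05 in limma. *Nr4a1*, an immediate early nuclear receptor gene, had 359, 321 and 269 in cKO1, cKO2 and cKO3 and 160, 198 and 229 in WT1, WT2 and WT3. *Pde4b*, which encodes a phosphodiesterase that degrades cAMP, was at 571, 324 and 367 in the cKO libraries and 267, 238 and 246 in the WT libraries. For both genes the cKO libraries lay above the WT libraries, with log2 differences of 0.70 (standard error 0.18, adjusted p = 0.218 from limma) and 0.71 (standard error 0.21, adjusted p = 0.267). *Sik1*, *Per1*, *Dusp1* and *Rgs2* had log2 differences of 0.55, 0.40, 0.72 and 0.39, and among these *Dusp1* overlapped between the groups. With array weights *Per1* had a log2 difference of 0.42 and an adjusted p of 0.0387 in limma, where 1.61% of all genes were called higher. In that setting *Nr4a1*, *Sik1*, *Dusp1*, *Pde4b* and *Rgs2* had smaller log2 differences (0.50, 0.38, 0.38, 0.59 and 0.32). Their adjusted p ran from 0.0531 to 0.357 in limma, and *Fosb* was at −1.25 (adjusted p = 0.0506). *Fosb* ran the other way, at 69.0, 101 and 62.9 in the cKO libraries and 103, 260 and 162 in the WT libraries. Of 12 lipoxygenase and leukotriene genes tested, which use the same arachidonic acid, 7 were higher and 5 lower, and 0 were at an unadjusted p under 0.05.

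Over the 6 libraries the profile most like that of *Ptgs2* belonged to *Isx*, an intestine-specific homeobox gene, followed by *Mfsd2a*, *Adamts1*, *2610524H06Rik* and *Zbtb16*. The root-mean-square difference of log2 values, each gene centered on its own mean, was 0.28 for *Isx* and 0.37 for *Zbtb16*, against 0.88 for *Ptgs2* from its own mean, in a search of 11879 protein-coding genes with a mean of at least 50. *Isx* had 915, 531 and 657 normalized counts in cKO1, cKO2 and cKO3 and 235, 264 and 235 in WT1, WT2 and WT3. These genes were picked for likeness over the same 6 libraries, so a shared order of libraries follows from the search and is no separate result. For *Hpgd* the nearest were *Borcs8*, *Iqsec2*, *Tmub1*, *Ndufa2* and *Hps5*, at 0.02 to 0.05 against 0.20 for *Hpgd* from its own mean.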

How the data were processed

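RNA from colonic tissue of 3 cKO and 3 WT libraries was compared in 1 table. The authors deposited normalized counts, a signal equal to reads per gene divided by 1 factor per library. The deposited genotype means, log2 fold changes and p-values come from the authors' own comparison and were not used. The submitters' processing notes name HISAT2 2.0.5, featureCounts 1.5.0-p3 and the human build hg18, but 97.3% of the table's matched genes have the mouse GRCm38 coordinates of GENCODE M21. Every value was a whole multiple of its library's smallest value (0.900 to 1.11), and in those units libraries totaled 14914367 to 17547270. Genes with a mean of at least 10 were fitted as log2(normalized count + 1), with genotype as the only term (limma 3.58.1, R 4.3.3, lmFit and eBayes with trend and robust), and p-values were adjusted by Benjamini-Hochberg (threshold 0.05). The fit was tested on simulated data drawn with the same spread per gene in both groups, which the real libraries need not have. It recovered 60.2% of genes changed by a log2 of 1 and 85.9% of those changed by 2. Unchanged genes made up 6.4% of the calls. The members, lists and rules for named genes were chosen with earlier results of these data known. Named were all members, list genes at an unadjusted p under 0.05 and the 5 genes nearest to *Ptgs2* and *Hpgd*. Also named was the gene of each prostanoid list with the highest mean count, not scaled by length. *Ttc33*, *Gm15937* and individual cell type markers were named after their values were seen. Alternatives were 2 pseudocounts, no filter, quantile normalization, array weights, a replicate block and leaving out each library. Promoter windows are from RefSeq (GRCm38.p6). Figures used matplotlib 3.10.9.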

Additional observations from a re-analysis of the deposited data

How the results depend on the processing

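Of all genes tested, 0 were called higher and 0 lower at an adjusted p under 0.05 in limma (1122 and 1151 at an unadjusted p under 0.05). Without a filter on low values the counts were 7 and 23, and with array weights 262 and 369. Leaving out each library in turn gave 0 to 70 higher and 0 to 52 lower, the most without cKO2, and without cKO1 2 higher and 22 lower. Among the 9 prostaglandin genes 1 was called with array weights (*Ptgs2*) and 0 in every other setting. Among the 30 other prostanoid genes 1 was called with array weights (*Akr1c18*, adjusted p = 0.0441, a gene above the filter only through its WT libraries) and 0 to 1 when a library was left out (*Akr1b3* without cKO2). *Nedd4l* had −1.10 with array weights (adjusted p = 0.0212 from limma) and −1.28 to −0.79 with a library left out, adjusted p 0.013 without cKO2. *Ptgs1* turned to −0.14 with array weights. With a library left out, *Ptgs1* ran from −0.035 to 0.18, *Hpgd* from −0.19 to 0.085, *Ptger2* from −0.38 to 0.24, *Pla2g10* from −0.076 to 0.28 and *Ptger1* from −0.061 to 0.26. The cause was not tested. Same-numbered libraries did not deviate together (correlations −0.03, −0.09 and −0.06). This gave no sign that equal numbers mark pairs, but it cannot exclude a pairing. With the replicate block 0 genes were called in either direction, *Ptgs2* had an adjusted p of 0.231 and *Nedd4l* 0.236. The planned edgeR and DESeq2 fits were not run, although every value was a whole multiple of its library's step. Without WT1, WT2 or WT3, 9, 7 and 7 of the 9 genes kept their place in the WT order of levels per kilobase. Depth is known only through the steps between values, so no counting intervals are given.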
